A study of Mus musculus with 6 samples.

Results

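The lipoxygenases and the enzymes of prostaglandin and leukotriene synthesis were examined as 10 named genes of the 24346 in the table. These are the lipoxygenase genes *Aloxe3*, *Alox12b*, *Alox5*, *Alox12* and *Alox15*, the leukotriene genes *Alox5ap* and *Ltc4s*, and the prostaglandin genes *Ptgs1*, *Ptgs2* and *Ptges*. The genes were picked by name, with the difference between the same groups of livers already known, so their differences are given as a description with no p-value. RNA of whole livers was sequenced from 6 male C57/BL6 mice, each 8 weeks old and each taken 24 hours after an intraperitoneal dose of 0.6 µl CCl4 per g body weight in sunflower oil. CCl4, which liver cells turn into a damaging radical, was given to every mouse. The 3 controls were med23 f/f, with floxed *Med23* alleles, and the other 3 were labelled med23 Δli. In med23 Δli mice, *Albumin*-cre removes the floxed part of *Med23*, a subunit of the Mediator complex, in hepatocytes only, so Kupffer cells, leukocytes and stromal cells of these livers still carry it. Each library came from 1 mouse, and no mouse without CCl4 was among the samples analysed here.

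Values are FPKM, which scales fragments to the length of the transcript and the size of the library, so levels of different genes can be compared. Because FPKM keeps no read counts, the depth of each single library is unknown. Values after ± are the SD among the 3 mice of a group. In the 6 libraries 7628 to 9341 genes had a value of 0. Differences are means of log2(FPKM + 0.1) in the med23 Δli-labelled livers minus those in the med23 f/f controls, a scale on which the change of a low gene is understated. Where a gene was tested, limma was fitted to all genes averaging 0.5 FPKM or more, and a gene passed at an adjusted p under 0.05. An SE given with an adjusted p is that of limma, which also draws on the variances of the other genes tested. Any other SE is that of the difference, from the gene's own values. *Med23* itself had 3.42, 2.97 and 4.14 FPKM in the controls and 3.40, 3.40 and 2.91 FPKM in the med23 Δli-labelled livers, a difference of -0.11 (limma SE 0.17, adjusted p = 0.685, exact two-sided permutation p = 0.4, where 0.1 is the smallest possible), so its level does not tell the groups apart. Without control 3 that difference was 0.017. The summed FPKM of 5 hepatocyte markers (*Alb*, *Apoa1*, *Ttr*, *Apob* and *Hnf4a*) was 21795 to 31246 in the controls and 18141 to 24401 in the other group. Most of it was *Alb*, with means of 19742 and 15409 FPKM. *Alb*, *Apoa1* and *Hnf4a* had lower means in the livers labelled med23 Δli, and *Ttr* and *Apob* had higher ones. *Apob* alone was without overlap, and none of these markers passed.

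Arachidonic acid is cut from membrane phospholipids by phospholipases A2 and then oxidized along separate routes. Lipoxygenases add oxygen at set positions of the chain to make hydroperoxides and, with helper proteins, leukotrienes. The cyclooxygenases *Ptgs1* and *Ptgs2* make the precursor of all prostaglandins and thromboxane. In liver, leukotrienes and prostaglandins are made largely by Kupffer cells, the resident macrophages, and by leukocytes that enter after injury, while hepatocytes take them up and break them down. *Aloxe3* and *Alox12b* are best known from skin, where they act in sequence on a ceramide lipid of the water barrier, and *Aloxe3* has also been described in hepatocytes during fasting.

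All 5 lipoxygenase genes end in a codon for isoleucine, whose terminal carboxyl group is a ligand of the catalytic iron. Their last 33 coding bases, shown because they carry that shared residue and how far the family members differ from each other, are printed with the last codon before the stop in capitals.
*Aloxe3*: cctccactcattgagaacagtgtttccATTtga
*Alox12b*: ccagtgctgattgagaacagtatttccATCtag
*Alox5*: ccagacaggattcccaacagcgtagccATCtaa
*Alox12*: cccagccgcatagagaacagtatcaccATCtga
*Alox15*: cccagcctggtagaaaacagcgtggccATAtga

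The sequences are from GENCODE mouse release M21 on GRCm38, the assembly of mm10, and each lies in the last exon of its gene. They occupy chr11:69148707-69148739 on the plus strand for *Aloxe3*, chr11:69169693-69169725 on the plus strand for *Alox12b*, chr6:116410719-116410751 on the minus strand for *Alox5*, chr11:70242385-70242417 on the minus strand for *Alox12* and chr11:70344543-70344575 on the minus strand for *Alox15*. Over these 33 bases *Aloxe3* had the same base as *Alox12b* at 24 positions, as *Alox12* at 23, as *Alox15* at 21 and as *Alox5* at 18. *Alox12* and *Alox15* were alike at 24 positions. The coding parts ran from 663 codons in *Alox12* and *Alox15* to 674 in *Alox5*, 701 in *Alox12b* and 711 in *Aloxe3*.

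The 10 genes covered a wide range of levels. In the controls the order of mean FPKM was *Alox5ap*, *Ptgs1*, *Ltc4s*, *Aloxe3*, *Alox12*, *Ptges*, *Alox5*, *Ptgs2* and *Alox15*, with *Alox12b* listed at 0. The values of the 3 controls did not overlap between *Alox5ap* and *Ptgs1*, between *Ptgs1* and *Ltc4s*, between *Alox12* and *Ptges*, or between *Alox5* and *Ptgs2*, and the other neighbours in that order overlapped. In the livers labelled med23 Δli, *Aloxe3* stood first, above *Alox5ap* and *Ptgs1*, without overlap between these neighbours. *Ltc4s*, *Alox12*, *Ptges*, *Ptgs2* and *Alox5* followed, each overlapping the next. The level required for testing, 0.5 FPKM on average, was reached by 4 of the 10 genes, *Aloxe3*, *Alox5ap*, *Ptgs1* and *Ltc4s*, and 6 lay below it. *Ltc4s* was just above that level with a mean of 0.742 FPKM, and *Alox12* was the nearest below it with 0.304 FPKM.

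Between the groups, *Aloxe3* was higher in every library labelled med23 Δli than in every control. *Alox5*, *Alox5ap*, *Alox12* and *Ptgs1* were lower in every library labelled med23 Δli than in every control. The values of *Alox15*, *Ptgs2*, *Ltc4s* and *Ptges* overlapped. Of the 11956 genes that reached the level for testing, 23.3% were higher without overlap and 20.4% were lower without overlap. These shares do not cover genes below that level, among them *Alox5* and *Alox12*. Nothing is read from the 1 and 4 of the 10 genes beside those shares, since the same comparison was known when they were picked.

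**Figure D1:**
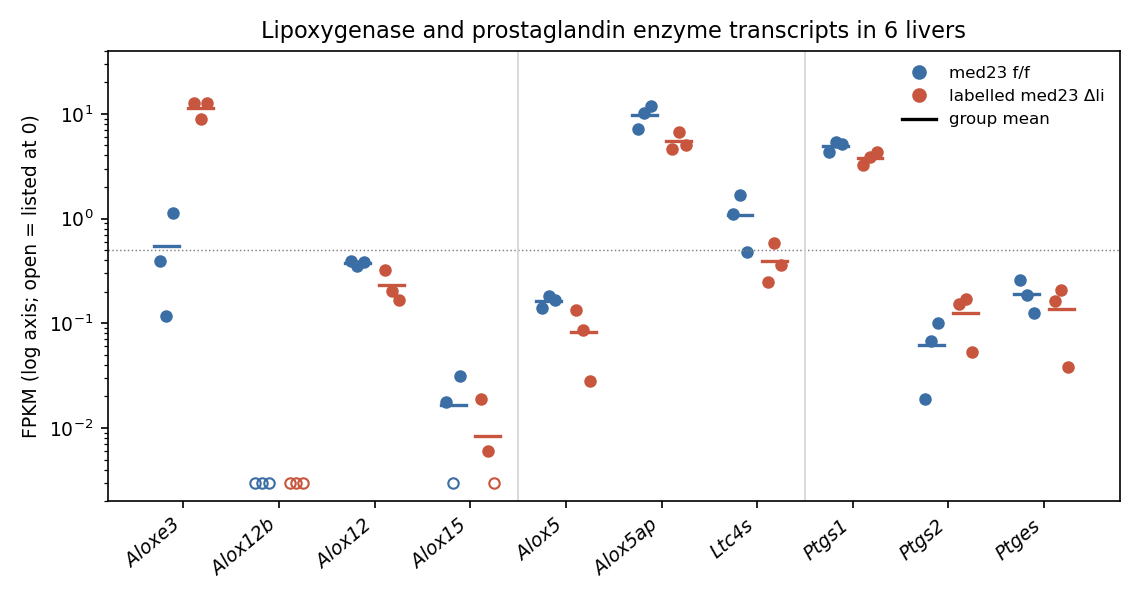
FPKM of the 10 genes on a log axis, with 1 filled point for each of the 3 med23 f/f controls and 3 livers labelled med23 Δli, open points for values listed at 0, a bar for the group mean and a dotted line at 0.5 FPKM. *Aloxe3* goes from a mean of 0.544 to 11.4 FPKM, *Alox5ap* from 9.74 to 5.45 FPKM, and *Alox12b* is at 0 in all 6 libraries.

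*Aloxe3* encodes an atypical lipoxygenase that rearranges fatty acid hydroperoxides, the products of other lipoxygenases, into epoxyalcohols. It had 0.393, 0.117 and 1.12 FPKM in the controls and 12.6, 8.85 and 12.7 FPKM in the med23 Δli-labelled livers. The controls were low and differed widely from each other, and the 3 other livers were all far above them and close together. The means were 0.544 ± 0.520 and 11.4 ± 2.17 FPKM (SD, n = 3 each), a ratio of 20.9 and a log2 difference of 4.48 (SE 0.74). Within each library, *Aloxe3* exceeded 26.7%, 10.8% and 29.2% of the genes above 0 in the controls, and 70.3%, 64.0% and 70.1% in the other group. It stood in the lower part of the list in every control and above its middle in every liver of the other group.

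The sum of the 5 lipoxygenase genes followed *Aloxe3*. It was 0.945, 0.652 and 1.70 FPKM in the controls and 13.1, 9.15 and 12.9 FPKM in the med23 Δli-labelled livers. *Aloxe3* made up 41.6%, 17.9% and 66.0% of it in the controls and 96.4%, 96.8% and 98.5% in the other group. In control 2, *Alox12* at 0.352 FPKM and *Alox5* at 0.183 FPKM were both above *Aloxe3* at 0.117 FPKM.

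*Alox12b*, which makes the hydroperoxide that *Aloxe3* uses in skin, was listed at 0 in all 6 libraries. It lies 7873 bases beyond *Aloxe3* on the same strand of chromosome 11 (*Aloxe3* chr11:69125896-69149115, *Alox12b* chr11:69156989-69169792). The next lipoxygenase gene, *Alox8*, lies 34816 bases beyond *Aloxe3* on the opposite strand and was at 0 in the controls and at 0.0128, 0.0194 and 0.0102 FPKM in the other livers. The high *Aloxe3* values were therefore not shared at a like level by the lipoxygenase genes next to it.

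On the other side, *Hes7*, a transcriptional repressor of the embryonic segmentation clock, ends 1840 bases before *Aloxe3* on the same strand. It had 0.166, 0 and 0.344 FPKM in the controls and 0.877, 1.05 and 0.415 FPKM in the med23 Δli-labelled livers, below the level for testing but without overlap. *Per1*, a circadian clock gene that ends 15935 bases before *Aloxe3*, had 13.4, 11.7 and 25.6 FPKM against 24.5, 22.8 and 20.3 FPKM, a difference of 0.49 (limma SE 0.27, adjusted p = 0.226). Its highest value was in control 3, which was also the control with the most *Aloxe3* and *Hes7*. *Vamp2*, a vesicle fusion gene farther out, had 16.7 ± 3.11 and 14.0 ± 1.96 FPKM (difference -0.24, limma SE 0.18, adjusted p = 0.350). *9130213A22Rik*, on the opposite strand over *Hes7*, was not analysed here. No annotated gene overlaps *Aloxe3*.

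**Figure D2:**
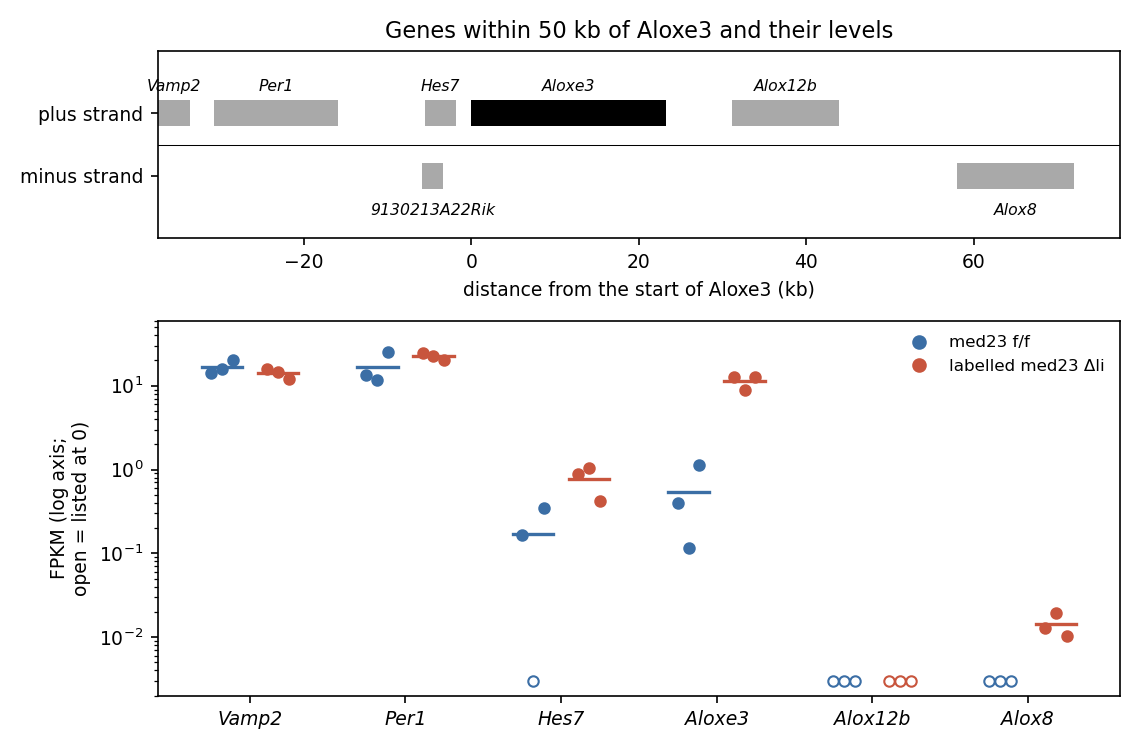
Upper panel, the genes within 50 kb of *Aloxe3* (black) drawn to scale by strand against distance from its start in kb. Lower panel, their FPKM on a log axis in the 3 controls and 3 livers labelled med23 Δli with the group means: *Aloxe3* and the low *Hes7* and *Alox8* are higher without overlap, *Per1* and *Vamp2* overlap between the groups, and *Alox12b* is at 0.

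Barrier genes and keratinocyte markers were set beside *Aloxe3*. Of 10 barrier genes that act with *Alox12b* and *Aloxe3*, 7 were below the level for testing, among them *Cers3* and *Abca12*, each above 0 in only 1 library, and *Lipn*, an epidermal lipase, at 0 in every control and at 0.104, 0.0784 and 0.0889 FPKM in the others, higher without overlap. *Sdr9c7*, a dehydrogenase that acts on the ceramide product of this route in skin, rose from 3.34 ± 0.867 to 7.65 ± 0.450 FPKM (difference 1.20, limma SE 0.20, adjusted p = 0.00796). Of the other 2 tested, *Slc27a4*, a fatty acid transporter, had 22.1 and 27.0 FPKM (difference 0.28, adjusted p = 0.209). *Tgm1*, a transglutaminase, had 21.01 ± 12.1 and 10.3 ± 0.389 FPKM (difference -0.79, adjusted p = 0.236). The summed FPKM of 6 keratinocyte markers was 8.14 to 15.6 in the controls and 11.4 to 15.3 in the med23 Δli-labelled livers, none of the 2 tested passed, and most of the sum was *Lor*, with means of 9.32 and 11.8 FPKM. *Krt5* and *Krt10* were lower without overlap. *Krt5*, *Krt14*, *Krt1* and *Trp63*, which define keratinocytes, were at 0 or below 0.4 FPKM in every library.

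The 5 genes whose values ran most nearly parallel to *Aloxe3* over the 6 libraries were *Sh3bgrl2* and *Agap1* (Pearson r = 0.999 each on the log2 scale), *Aldh1l2* (r = 0.999), *Samd4* (r = 0.997) and *Rock2* (r = 0.996). The same libraries and both groups enter every r, and the values are a description. *Aldh1l2*, a mitochondrial enzyme of folate metabolism, was the member of this set nearest to *Aloxe3* in size, with means of 1.61 and 25.7 FPKM and a log2 difference of 4.18. *Sh3bgrl2*, at 9.94 and 16.3 FPKM, had a difference of only 0.72.

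*Alox12*, the platelet-type lipoxygenase, lay low in every liver. It had 0.394, 0.352 and 0.381 FPKM in the controls and 0.323, 0.205 and 0.167 FPKM in the med23 Δli-labelled livers. The controls were nearly equal, and the lowest control was above the highest of the others. The means were 0.376 ± 0.0215 and 0.232 ± 0.0815 FPKM, a log2 difference of -0.55 (SE 0.20), which was -0.16 with a pseudocount of 1. The summed FPKM of 6 platelet and megakaryocyte markers was also lower without overlap, 5.62 to 8.15 in the controls and 2.30 to 5.59 in the other group. Of the 2 of these markers that were tested, *Itga2b* fell by 0.91 on the log2 scale (adjusted p = 0.0321, limma) and *Pf4*, the highest, had a difference of -1.05 (adjusted p = 0.177). *Gp9*, below the level for testing, went the other way without overlap, at 0 in every control and at 0.0723, 0.0199 and 0.363 FPKM in the others. *Alox12* as a percentage of that sum was 7.01, 4.85 and 4.68 in the controls and 14.0, 5.23 and 2.99 in the others, so the groups overlapped on this measure. In bulk RNA, fewer cells of a type and less RNA per cell cannot be told apart, and the part of platelets in the *Alox12* values was not tested.

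*Alox15*, a lipoxygenase of eosinophils and some macrophages, was near 0 throughout, with 0.0179, 0 and 0.0314 FPKM in the controls and 0.0189, 0.00609 and 0 FPKM in the others. The groups overlapped (difference -0.10, SE 0.14). The eosinophil markers *Epx* and *Prg2* were at 0 in every library, and the summed FPKM of all 4 eosinophil markers was 0.0503 to 0.472 in the controls and 0.147 to 0.250 in the other group.

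In the leukotriene branch, *Alox5* oxidizes arachidonic acid to leukotriene A4, and *Alox5ap* encodes the membrane protein that presents the substrate to it. *Alox5ap* was the highest of the 10 genes in the controls, with 7.22, 10.2 and 11.8 FPKM, against 4.62, 6.71 and 5.01 FPKM in the med23 Δli-labelled livers. All 3 of the latter lay below the lowest control. The means were 9.74 ± 2.32 and 5.45 ± 1.11 FPKM, so the controls were 1.79 times higher, with a log2 difference of -0.82 (SE 0.26).

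*Alox5* itself was far lower, at 0.140, 0.183 and 0.165 FPKM in the controls and 0.133, 0.0861 and 0.0280 FPKM in the others. The lowest control and the highest of the others were almost equal, and the groups overlapped after quantile normalization. The log2 difference of -0.57 (SE 0.26) depended on the pseudocount, from -0.10 with a pseudocount of 1 to -1.09 with 0.01. *Alox5ap* thus exceeded the enzyme it serves in every liver and in both groups.

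*Ltc4s* joins leukotriene A4 to glutathione to make leukotriene C4. It had 1.10, 1.68 and 0.476 FPKM in the controls and 0.246, 0.584 and 0.359 FPKM in the med23 Δli-labelled livers, means of 1.09 ± 0.604 and 0.396 ± 0.172 FPKM. Control 3 lay below the highest of the other livers, so the groups overlapped in spite of a log2 difference of -1.17 (SE 0.56). Control 3 and liver 2 of the other group were the only pair that overlapped, so leaving out either necessarily ends the overlap. The difference was -1.62 without control 3 and -0.80 without control 2. With a pseudocount of 1 it was -0.55.

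Markers of the cells that make leukotrienes were set beside these genes. Summed FPKM of 7 leukocyte markers was 123 to 152 in the controls and 118 to 125 in the med23 Δli-labelled livers, and 1 of the 7, *Coro1a*, fell (-0.58, adjusted p = 0.0478, limma). Kupffer cell markers summed to 118 to 186 and 124 to 134 FPKM, monocyte markers to 78.4 to 92.7 and 86.1 to 101 FPKM, and neutrophil markers to 40.5 to 134 and 38.8 to 97.9 FPKM. None of the 6 Kupffer cell, 6 monocyte and 4 neutrophil markers tested passed in limma. On the measure used for the 10 genes, *Clec4f* of Kupffer cells, with means of 23.3 and 18.0 FPKM, and *Cxcr2* of neutrophils, with 1.31 and 0.7501 FPKM, were lower without overlap, as was *Coro1a*, and no marker of these 4 lists was higher without overlap. Mast cell markers were at or near 0, with *Cpa3* and *Cma1* at 0 in every library and sums of 0 to 0.170 and 0 to 0.0367 FPKM. By the mean over the 6 libraries, the highest marker was *Tyrobp* among the leukocyte, *Cd5l* among the Kupffer cell (with *Marco* above it in 3 of the 6 libraries), *Lyz2* among the monocyte and *S100a8* among the neutrophil genes.

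Set against 3 of these sums, *Alox5ap* was lower in every liver of the group labelled med23 Δli, and against the neutrophil sum the groups overlapped. It was 5.85%, 6.71% and 7.82% of the leukocyte sum in the controls and 3.71%, 5.68% and 4.26% in the med23 Δli-labelled livers. Against the Kupffer cell sum it was 6.15%, 5.49% and 8.51% in the controls and 3.44%, 5.40% and 3.80% in the others. Neither measure overlapped between the groups, though the gap in the second was narrow. Against the monocyte sum it was 7.80%, 11.9% and 15.0% in the controls and 4.57%, 7.79% and 5.32% in the others, almost without a gap. Against the neutrophil sum it was 17.8%, 11.7% and 8.79% in the controls and 11.9%, 6.85% and 7.58% in the others. *Alox5* was lower without overlap against the leukocyte and monocyte sums and overlapped against the Kupffer cell and neutrophil sums, and *Ltc4s* overlapped against all 4. Most of the monocyte sum was *Lyz2*, with means of 77.7 and 85.6 FPKM where the sum had 85.7 and 93.8 FPKM. The percentages of that sum are therefore largely relative to 1 gene. The sums hold several cell types, and the part of leukocyte number in these values was not tested.

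**Figure D3:**
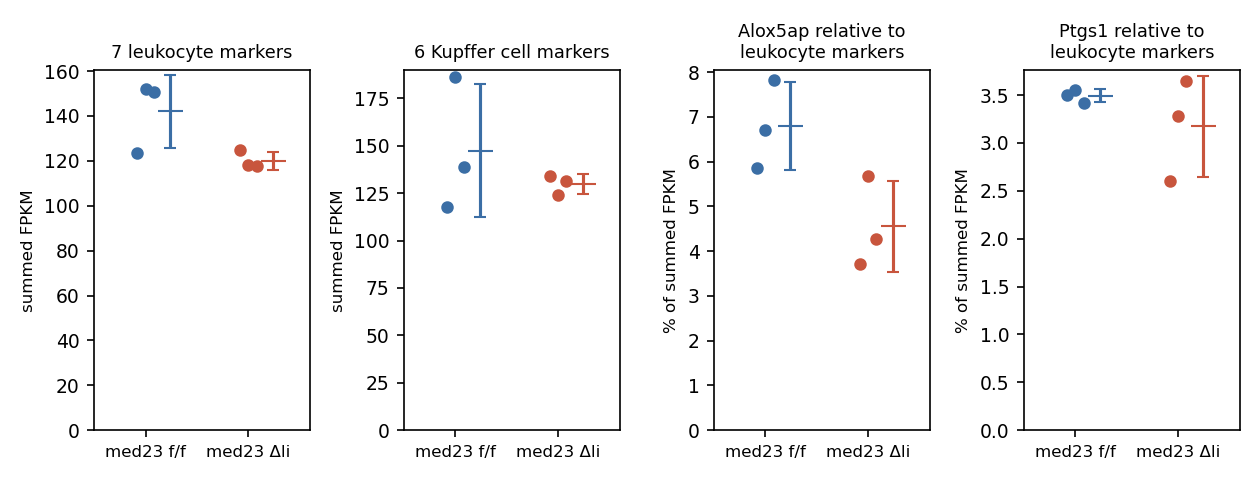
Summed FPKM of 7 leukocyte and 6 Kupffer cell markers (left panels) and *Alox5ap* and *Ptgs1* as a percentage of the leukocyte sum (right panels), with a point for each of the 3 livers per group and the mean ± SD beside them. *Alox5ap* lies at 5.85% to 7.82% in the controls and 3.71% to 5.68% in the med23 Δli-labelled livers, while *Ptgs1* overlaps.

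In the prostaglandin branch, *Ptgs1* encodes the cyclooxygenase that most tissues express at rest and that makes thromboxane in platelets. It had 4.32, 5.41 and 5.15 FPKM in the controls and 3.24, 3.87 and 4.28 FPKM in the med23 Δli-labelled livers. The separation between the groups was the small step from 4.32 to 4.28 FPKM, and it was lost when each library was centred on its median and after quantile normalization. The means were 4.96 ± 0.570 and 3.80 ± 0.525 FPKM, a log2 difference of -0.38 (SE 0.15). As a percentage of the leukocyte sum *Ptgs1* was 3.50, 3.56 and 3.42 in the controls and 2.60, 3.28 and 3.65 in the others, with overlap. It also overlapped against the Kupffer cell and neutrophil sums and was lower without overlap against the monocyte sum, most of which was *Lyz2*. The platelet and megakaryocyte sum given above, 5.62 to 8.15 FPKM against 2.30 to 5.59 FPKM, was lower without overlap like *Ptgs1*, and its part in the *Ptgs1* values was not tested.

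*Ptgs2*, the cyclooxygenase induced in inflammation, was close to 0 in all 6 livers at this time after CCl4. It had 0.0189, 0.0681 and 0.1001 FPKM in the controls and 0.154, 0.169 and 0.0536 FPKM in the others. Livers 1 and 2 of the group labelled med23 Δli were above every control and liver 3 was not, so the groups overlapped (difference 0.46, SE 0.34). The difference was 0.082 with a pseudocount of 1 and 0.97 with 0.01. The level of *Ptgs2* stayed below that of *Ptgs1* in every library.

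*Ptges*, the inducible prostaglandin E synthase that works with *Ptgs2*, had 0.258, 0.185 and 0.124 FPKM in the controls and 0.162, 0.208 and 0.0384 FPKM in the others. The groups overlapped, with a difference of -0.35 (SE 0.40), which was -0.0020 without liver 3 of the group labelled med23 Δli, -0.068 with a pseudocount of 1 and -0.65 with 0.01. In these livers the prostaglandin genes picked thus stood at low levels apart from *Ptgs1*.

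The annotated positions on mm10 are chr5:149264767-149288153 on the plus strand for *Alox5ap*, chr6:116410077-116461178 on the minus strand for *Alox5* and chr11:50236461-50238616 on the minus strand for *Ltc4s*. *Alox12* (chr11:70241457-70255353) and *Alox15* (chr11:70344152-70352031) lie on the minus strand of chromosome 11. *Ptgs1* (chr2:36230426-36252272) and *Ptgs2* (chr1:150100031-150108227) lie on the plus strand, and *Ptges* (chr2:30889471-30929863) on the minus strand. *Alox5ap*, *Ptgs1*, *Ltc4s* and *Ptges* each overlap another annotated gene, *n-R5s180* and *Gm19719*, *Gm43621*, *Gm26542* and *Gm13400* in that order. Whether the counting used strand is not stated, so reads there may be shared. The lipoxygenase genes *Aloxe3*, *Alox12b*, *Alox8*, *Alox12*, *Alox12e* and *Alox15* all lie on chromosome 11, and among these *Aloxe3* alone reached 0.5 FPKM in any library.

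Promoter windows of 300 bases, from 250 before to 50 after the start, were given by RefSeq (GRCm38.p6) for 7 of the 10 genes, all but *Aloxe3*, *Alox5ap* and *Alox15*. On either strand, AGGTCA, an element bound by nuclear receptors, was in 0 of the 7 windows and in 16.3% of 32851 windows, and TGANTCA, bound by AP-1, in 0 of 7 and in 7.81%. CACGTG, an E-box, was in the window of *Ptgs2* and in 7.15% of all. TTNNGNAA, a C/EBP motif, was in the windows of *Ptgs2*, *Ptges* and *Alox12* and in 40.7% of all. Both matches in *Alox12* overlap each other, no match of a motif overlapped that of another, and a match or its absence is a description of the window.

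The steps before and after these enzymes were tested in 6 lists of 70 genes in the table, of which 37 reached the level for testing. With limma and Benjamini-Hochberg adjustment over all 11956 genes, 5 of the 37 rose, 5 fell and 27 did not pass. Over all genes tested, 11.6% rose and 9.48% fell. The median log2 difference of the 37 was -0.023, against 0.024 over all genes. By their log2 differences, 6 of the 10 that passed differed by more than 2-fold. *Pla2g12a* and *Pla2g12b* fell just short of that, with log2 differences of 0.996 and -0.977. Their ratios of mean FPKM, 2.05 and 0.486, were beyond 2-fold.

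For the release of arachidonic acid, 1 of 8 tested genes rose and 1 fell. *Pla2g12a*, a secreted phospholipase A2, rose from 16.4 ± 3.60 to 33.5 ± 11.7 FPKM (difference 1.00, limma SE 0.26, adjusted p = 0.0333). *Pla2g12b*, a relative that lacks catalytic activity and is needed for lipoprotein secretion from hepatocytes, fell from 66.5 ± 23.4 to 32.4 ± 2.03 FPKM (-0.98, SE 0.25, adjusted p = 0.0291). *Mgll*, a lipase that frees arachidonic acid from a monoacylglycerol, was the highest of the genes that did not pass, at 21.5 and 28.7 FPKM (0.41, adjusted p = 0.166). *Lpcat3*, which returns arachidonic acid to phospholipids, had 24.3 and 23.8 FPKM (-0.023, adjusted p = 0.929). The median difference of this list was 0.025. *Pla2g2e* was at 0 in every library.

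Among the other lipoxygenases and leukotriene steps, 1 of 5 tested genes rose and 2 fell, with a median difference of -0.60. *Lta4h*, which makes leukotriene B4, fell from 18.2 ± 3.27 to 11.9 ± 0.292 FPKM (-0.60, SE 0.15, adjusted p = 0.0317). *Mgst3*, a microsomal glutathione transferase that can make leukotriene C4, fell from 18.3 ± 9.77 to 5.74 ± 0.378 FPKM (-1.50, SE 0.36, adjusted p = 0.0253). *Abcc4*, an exporter of prostaglandins and other anions, rose in all 3 livers, from 1.08, 0.958 and 1.74 FPKM in the controls to 10.2, 8.45 and 11.8 FPKM (2.94, SE 0.24, adjusted p = 0.000918). This was the largest difference in the 6 lists. *Abcc1*, the exporter of leukotriene C4, had 0.785 and 1.04 FPKM (0.38, adjusted p = 0.297).

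Of 7 other prostanoid synthases tested, none rose and 1 fell, with a median of -0.094. *Cbr1*, a carbonyl reductase that converts prostaglandin E2 to F2α among many other substrates, fell from 180, 234 and 129 FPKM to 79.0, 59.4 and 52.9 FPKM (-1.48, SE 0.24, adjusted p = 0.00770). *Ptges3*, a cochaperone also described as a cytosolic prostaglandin E synthase, had 69.8 and 95.6 FPKM and just missed the threshold (0.46, adjusted p = 0.0511). Its levels were far above those of *Ptges* in every liver.

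For breakdown and transport, 2 of 9 tested genes rose and none fell, with a median of 0.27. *Cyp4f14* and *Cyp4f15*, which hydroxylate leukotriene B4 and other fatty acids, rose from 39.0 ± 11.8 to 66.0 ± 5.61 FPKM (0.80, SE 0.23, adjusted p = 0.0420) and from 12.8 ± 2.83 to 33.6 ± 0.684 FPKM (1.41, SE 0.18, adjusted p = 0.00370). *Ephx2*, the soluble epoxide hydrolase that opens fatty acid epoxides, had 76.5 and 96.2 FPKM (0.38, adjusted p = 0.329).

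Of 5 receptors tested, none rose and 1 fell, with a median of -0.77, and 11 of the 16 were below the level for testing. *Tbxa2r*, the thromboxane receptor, fell from 0.882, 0.901 and 0.636 FPKM to 0.368, 0.157 and 0.114 FPKM (-1.61, SE 0.39, adjusted p = 0.0255). The difference was -0.58 with a pseudocount of 1 and -2.03 with 0.01, and the gene passed with both. This gene passed near the lowest level tested, at a mean of 0.510 FPKM, and was not tested when the level was 1 FPKM. *Tbxa2r* (means 0.806 and 0.213 FPKM), *Ltb4r1* (0.771 and 0.429) and *Ltb4r2* (0.914 and 0.454) reached the level for testing only through the controls. The median is the difference of *Ltb4r2*, so the call and the median both rest on genes let in by high controls, and nothing further is read from them. *Ptger1*, a prostaglandin E2 receptor, was the highest at 4.18 and 3.75 FPKM (-0.12, adjusted p = 0.704), and *Oxgr1* was at 0 throughout. The median of the 3 barrier genes tested was 0.28.

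**Figure D4:**
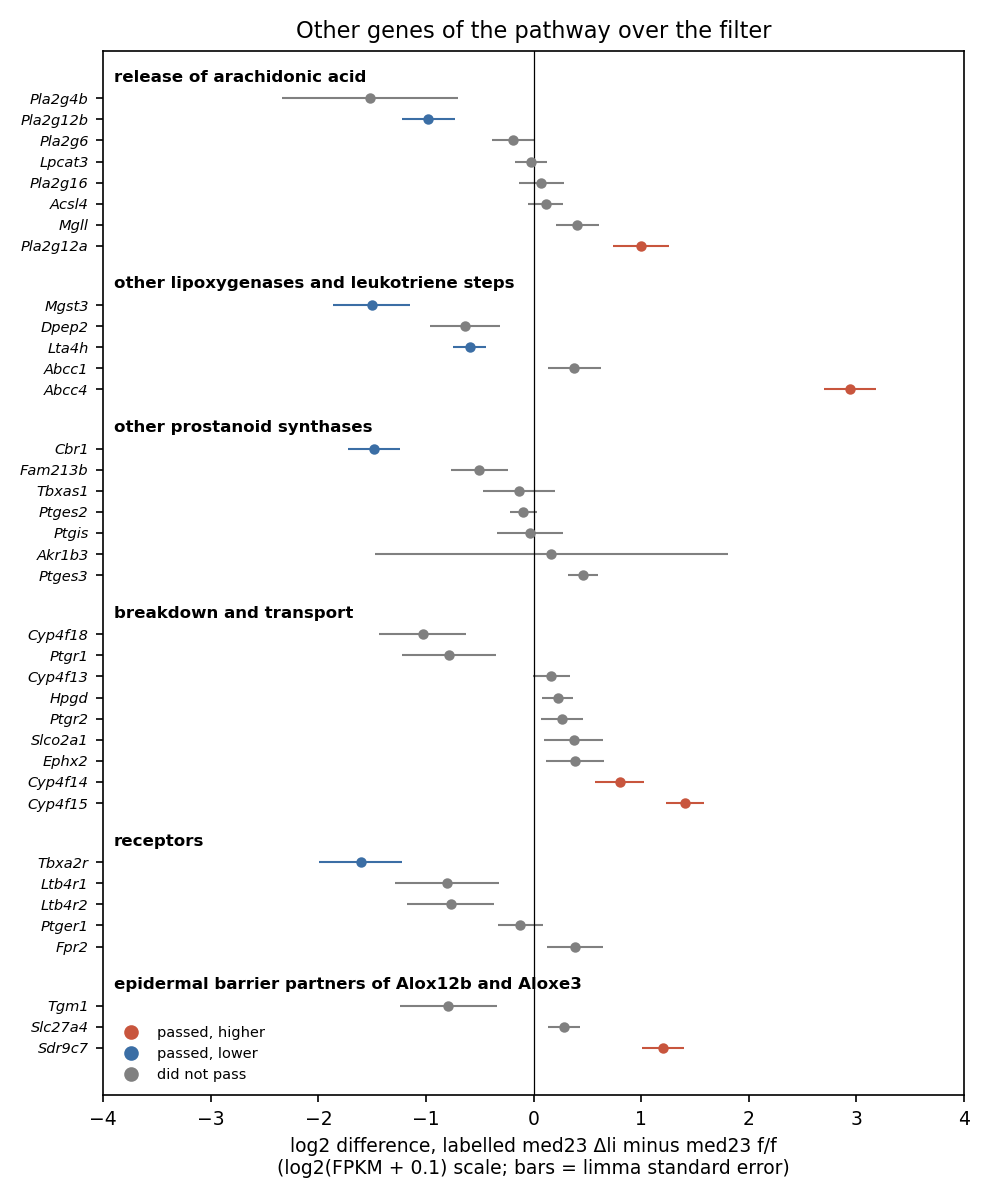
Log2 differences (livers labelled med23 Δli minus controls, on the log2(FPKM + 0.1) scale) of the 37 tested genes of the 6 lists, with bars for the limma standard error and colour for the 5 that rose, the 5 that fell and the 27 that did not pass. *Abcc4* lies farthest to the right at 2.94, and *Tbxa2r*, *Mgst3* and *Cbr1* are the lowest of those that passed.

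*Abcc4*, *Cbr1*, *Cyp4f15* and *Sdr9c7* passed in all 15 alternatives run, with a largest adjusted p of 0.0126, 0.0406, 0.0259 and 0.0424, each without liver 3 of the group labelled med23 Δli. The other 6 calls were lost in 4 to 6 alternatives each, mostly on leaving out 1 library. With every gene above 0 tested, *Pla2g12a* (adjusted p = 0.0637), *Pla2g12b* (0.0560), *Mgst3* (0.0549) and *Cyp4f14* (0.0724) did not pass, and *Cyp4f14* did not pass without the trend (0.0572). With every gene above 0 tested, 4 genes of the lists rose and 4 fell, so other listed genes passed there. With a pseudocount of 1, and also with robust eBayes, 6 rose and 5 fell. *Lta4h* did not pass without any library in turn except control 3 (largest adjusted p = 0.109, without liver 2 of the other group). Leaving out control 1 ended the calls of *Pla2g12a* (adjusted p = 0.0958), *Pla2g12b*, *Mgst3* and *Tbxa2r*, and leaving out control 2 those of *Pla2g12a*, *Cyp4f14* and *Tbxa2r*. In the group labelled med23 Δli, leaving out liver 1 ended those of *Pla2g12a*, *Pla2g12b*, *Mgst3* (0.0846) and *Cyp4f14* (0.132). Without liver 2 all of these and *Tbxa2r* (0.0778) were lost, and without liver 3 all but *Pla2g12a* (0.0991 for *Pla2g12b*).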

How the data were processed

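Per the labels and the study's methods, TruSeq v2 libraries were made from 100 ng of total RNA of whole liver and sequenced in pairs. The authors trimmed adapters, aligned reads to mm10 with TopHat and ran Cuffdiff, whose deposited table holds FPKM per library. Versions, annotation and options are not given in the sources used here, and of the depth only a median over the samples is stated. The table also holds the authors' group means, fold changes, p-values and calls, which were not used. FPKM gave no recoverable whole reads (14.6% to 21.1% of low values lay within 0.05 of a whole multiple).

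Genes averaging 0.5 FPKM or more over the 6 libraries were tested on log2(FPKM + 0.1) with limma 3.58.1 in R 4.3.3 (eBayes with trend, Benjamini-Hochberg adjustment, threshold 0.05), 3 against 3 libraries. The fit was tested on simulated data. The 10 genes and all lists were chosen with earlier results of these data known. Named are the 10 genes, those of each list that passed and its highest other gene by the mean over all libraries, genes within 50 kb of *Aloxe3*, its 5 most similar genes, *Med23* and the highest and absent markers. *Tgm1*, *Lpcat3* and a few low genes were added after their values were seen. *Fam213b* stands for its newer symbol Prxl2b, and 50 of 53 markers were in the table. Python 3.11.15 with pandas 2.3.3, numpy 2.4.6, scipy 1.17.1 and matplotlib 3.10.9 was used for the rest. The alternatives tried were a pseudocount of 1 or 0.01, testing every gene above 0 or those averaging 1 FPKM, median centring, quantile normalization, eBayes without trend, robust eBayes, a replicate block and leaving out each library.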

Additional observations from a re-analysis of the deposited data

How the results depend on the processing

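The count of the 10 genes higher without overlap was 1 in every setting except without liver 3 of the group labelled med23 Δli, where *Ptgs2* made it 2. The count lower without overlap was 2 after quantile normalization (*Alox12* and *Alox5ap*), 3 after median centring, and 4 to 5 on leaving out a library. The log2 difference of *Aloxe3* ranged from 3.86 to 5.11 on leaving out a library and was 3.04 with a pseudocount of 1. On leaving out a library, that of *Alox5ap* ranged from -1.02 to -0.67, of *Alox12* from -0.74 to -0.40, of *Alox5* from -0.76 to -0.33, of *Ptgs1* from -0.47 to -0.27, of *Ltc4s* from -1.62 to -0.80, of *Ptges* from -0.58 to -0.0020, of *Alox15* from -0.20 to -0.0068 and of *Ptgs2* from 0.25 to 0.72. *Alox15* had -0.44 with a pseudocount of 0.01, and none of the 9 genes above 0 changed sign in the alternatives run.

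In the 6 lists, 3 to 5 genes rose and 1 to 7 fell on leaving out a library, with 1 falling without control 1 and without livers 2 or 3 of the other group, 2 without its liver 1, 3 without control 2 and 7 without control 3. Each of these runs had 1 library fewer, also the run without control 3, in which more genes fell. The cause of these changes was not tested. The *Med23* difference ranged from -0.22 without control 2 to 0.017 without control 3, against -0.11. Replicate numbers did not pair the samples (r of deviations -0.022, -0.046 and -0.12 for equal numbers). With the replicate number as a block, 4 rose and 4 fell in the lists (*Pla2g12a*, adjusted p = 0.0606, and *Lta4h*, 0.0655, did not pass), and 809 genes rose and 614 fell of all tested, against 1384 and 1133, and the *Med23* difference was -0.11. Of all genes tested, 397 rose and 343 fell without liver 1 of the group labelled med23 Δli, 478 and 424 without its liver 2, and 553 and 384 without its liver 3. Without control 1 the counts were 1099 and 798, without control 2 1029 and 744, and without control 3 1723 and 1420. FPKM without counts and 3 mice a group limit what can be said of values near 0.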
